A study of Mus musculus with 3 samples.

Results

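The mitochondrial genome of the mouse carries 37 genes, of which 13 encode proteins, 2 ribosomal RNAs (rRNA) and 22 transfer RNAs (tRNA). All 37 were taken by their symbols, which start with mt-, from the 37620 gene identifiers measured. The data are mRNA sequencing of primary hepatocytes, the parenchymal cells of the liver, from C57BL/6 mice at passage 1. There was 1 library from cells given the solvent DMSO, with no time given, and there were 2 from cells given the taurine-conjugated bile acid tauroursodeoxycholic acid (TUDCA), labelled as 100 mM for 24 h. All cells were plated on gelatin in medium with serum and insulin. The dose is printed as labelled, and an error in its unit is possible. A difference in culture time between the groups cannot be told apart from TUDCA. The series speaks of 2 independent experiments without saying which library came from which. The TUDCA libraries may thus be technical repeats. The p-values of single genes judge a difference from DMSO by a spread taken only from those libraries and shared between genes. Variation between DMSO cultures was not measured. The comparison asks which transcripts differed with TUDCA.

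Mitochondrial DNA is transcribed by its own RNA polymerase, Polrmt, into long transcripts of both strands. The tRNA sequences that lie between the other genes are cut out, which frees the mRNAs and rRNAs. Most genes are read in the heavy-strand transcript, while mt-Nd6 and 8 tRNAs are read in the light-strand transcript. The proteins are core subunits of respiratory complexes I, III and IV and of ATP synthase, whose other subunits are encoded in the nucleus. Most mitochondrial mRNAs end in a short poly(A) tail, the mt-Nd6 mRNA mostly lacks one, and mature tRNAs end in CCA. The libraries were made from RNA captured on oligo(dT) beads, so levels of RNAs without a tail depend on how much of them came through that step.

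The sequences of a few members described later are shown first. They are from GENCODE M21, which uses build GRCm38, and capitals in the tRNA genes mark the anticodon found by the genetic code of vertebrate mitochondria. The first 3 tRNA genes, for serine, glutamic acid and proline, held the most reads of all 22 and lie in the light-strand transcript. The other four are those whose levels passed the test.
mt-Ts1 (chrM:6870-6938, minus strand): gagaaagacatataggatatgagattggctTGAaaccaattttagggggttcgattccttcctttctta
mt-Te (chrM:14071-14139, minus strand): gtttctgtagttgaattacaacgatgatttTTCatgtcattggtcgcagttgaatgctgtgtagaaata
mt-Tp (chrM:15356-15422, minus strand): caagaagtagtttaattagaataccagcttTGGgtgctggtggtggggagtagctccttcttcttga
mt-Tt (chrM:15289-15355, plus strand): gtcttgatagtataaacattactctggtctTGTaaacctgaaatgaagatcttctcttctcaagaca
mt-Ts2 (chrM:11613-11671, plus strand): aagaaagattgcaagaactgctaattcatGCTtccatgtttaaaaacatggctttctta
mt-Ti (chrM:3706-3774, plus strand): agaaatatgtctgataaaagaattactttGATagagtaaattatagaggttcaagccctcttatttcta
mt-Tw (chrM:4950-5016, plus strand): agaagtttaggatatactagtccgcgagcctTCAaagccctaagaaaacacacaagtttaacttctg

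The next pair belongs to the genes with the lowest protein-gene counts. In the junction of mt-Atp8 and mt-Atp6 the capitals mark the 43 bases that both genes share. In mt-Nd4l, which had no read, they mark the 3 bases outside its alignment to the nuclear pseudogene Gm10222, which is identical at all 294 of its positions.
mt-Atp8 and mt-Atp6 (chrM:7912-7984, plus strand): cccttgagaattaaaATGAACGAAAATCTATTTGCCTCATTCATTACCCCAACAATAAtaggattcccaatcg
mt-Nd4l (chrM:9877-10173, plus strand): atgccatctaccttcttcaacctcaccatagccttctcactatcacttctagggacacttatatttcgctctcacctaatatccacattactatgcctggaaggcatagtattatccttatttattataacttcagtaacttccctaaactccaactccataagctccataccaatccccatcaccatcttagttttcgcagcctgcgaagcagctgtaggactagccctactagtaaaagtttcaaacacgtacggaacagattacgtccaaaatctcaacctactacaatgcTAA

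The deposited values were RPKM, reads per kilobase of gene, scaled to the size of the library. At the annotated length of each gene, all 37 gave whole reads in all 3 libraries, within 1e-10 of a read, if the DMSO library held 10774289 reads and the TUDCA libraries 9757547 (replicate 1) and 10575699 (replicate 2). Hepatocyte markers were present throughout, with albumin (Alb) at 5771, 7177 and 6111 RPKM in DMSO and TUDCA replicates 1 and 2. The same order of libraries holds for every trio of values that follows. Of 12 hepatocyte markers, Fga, Fgb and Hnf4a were called higher with TUDCA, beside 1.77% of all genes tested. Both TUDCA libraries were above DMSO for 9 of the 12 and below it for 1, beside 40.5% and 30.4% of all genes tested. Of 10 macrophage markers none was called, and their summed level was 318.2, 289.4 and 313.2 RPKM. Markers of stellate cells summed to 9.93 to 13.2 RPKM, of endothelial cells to 3.19 to 5.07, of leukocytes to 11.7 to 18.1 and of red cells to 7.57 to 8.58. The 7 cholangiocyte markers summed to 437.1, 821.2 and 647.6 RPKM, most of it Spp1, which rose (limma adjusted p = 0.00464), with 1 of them at 0 in every library. The part of these markers in the mitochondrial levels was not tested.

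The mitochondrial share of each library was higher with TUDCA. Mitochondrial genes held 123019 reads in DMSO, 150743 in TUDCA replicate 1 and 154054 in TUDCA replicate 2. These were 1.14% of the reads in DMSO, with a 95% exact Clopper-Pearson interval of 1.135 to 1.148%, 1.54% in TUDCA replicate 1 (1.537 to 1.553%) and 1.46% in TUDCA replicate 2 (1.449 to 1.464%). Such intervals cover counting error only. The TUDCA libraries, at 1.501 ± 0.0624% (SD, n = 2), lay 1.35 and 1.28 times above DMSO, and the groups did not overlap. An exact permutation test of 2 libraries against 1 cannot go below p = 0.3333, which it gave, two-sided. In bulk RNA, more cells rich in mitochondria and more mitochondrial RNA per cell cannot be told apart.

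**Figure D1:**
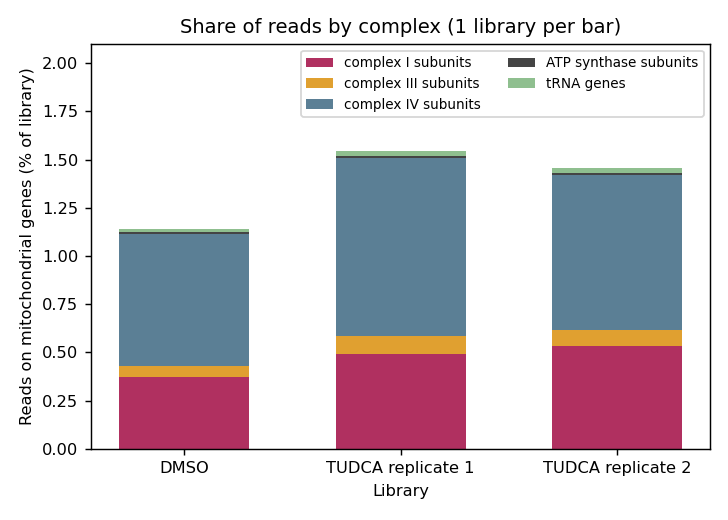
Reads on mitochondrial genes as a percentage of each library (vertical axis), stacked by respiratory complex and tRNA genes, 1 library per bar; the rRNA genes, at under 20 reads a library, are too few to draw. The DMSO bar ends at 1.14% and the TUDCA bars at 1.54% (replicate 1) and 1.46% (replicate 2), and subunits of complexes I and IV make up most of each.

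Almost all of these reads came from protein genes, at 1.12%, 1.52% and 1.43% of the library. Subunits of complex IV (cytochrome c oxidase, which passes electrons to oxygen) took 0.681%, 0.923% and 0.805%. Subunits of complex I (NADH dehydrogenase, the entry point of electrons from NADH) took 0.371%, 0.491% and 0.531%. The complexes thus differed in which TUDCA library was higher. Complex IV was 1.36 times DMSO in replicate 1 and 1.18 times in replicate 2, and complex I was 1.33 and 1.43 times DMSO. mt-Cytb, the 1 mitochondrial subunit of complex III, was 1.51 and 1.38 times DMSO. Without mt-Co1, the gene with the most reads, the share was 0.664%, 0.901% and 0.900%.

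Levels per length spanned more than an order of magnitude among the protein genes. mt-Co1, the catalytic subunit of complex IV, stood at 3092, 4170 and 3604 RPKM and took 42.5%, 42.4% and 38.9% of the mitochondrial protein reads. It was the 18th, 11th and 16th highest of all genes in the 3 libraries. mt-Co2, which receives electrons from cytochrome c, had 1411, 1881 and 1557 RPKM, and mt-Co3, the other core subunit of that complex, 1366, 1919 and 1811. mt-Co2 lay above mt-Co3 in DMSO and below it in both TUDCA libraries. All 3 genes were higher in each TUDCA library than in DMSO.

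Complex I genes formed the middle of the order. mt-Nd4, a proton-pumping subunit, had 773.9, 1002 and 1106 RPKM and ranked 4 among the protein genes in every library. mt-Nd2 and mt-Nd5, which are also part of the pumping arm, had 660.5, 867.0 and 946.7 RPKM and 474.4, 672.1 and 741.0 RPKM. mt-Nd1, which lies next to the quinone site, had 616.6, 880.6 and 831.0 RPKM. mt-Nd6, the protein gene of the light-strand transcript, had 622.5, 763.6 and 888.0 RPKM. It overlaps mt-Nd5 by 14 bases on the opposite strand. The labels do not say whether counting used the strand, so mt-Nd6 reads cannot be told apart from reads of the opposite transcript. mt-Cytb had 534.9, 806.1 and 739.8 RPKM. The places of mt-Nd1, mt-Nd2, mt-Nd5, mt-Nd6 and mt-Cytb relative to each other changed between the TUDCA libraries, so their order was not fixed beyond the spread.

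The ATP synthase genes and mt-Nd4l stood apart at the low end. mt-Atp6, part of the proton channel, had 114.5, 149.9 and 129.0 RPKM, and mt-Atp8, a small subunit at its side, 96.9, 151.7 and 118.2. These genes changed places in TUDCA replicate 1. They overlap by the 43 bases printed above, and a read across them cannot be given to 1 gene by position alone. mt-Nd4l, a small complex I subunit that overlaps mt-Nd4 by 7 bases, had no read in any library, which allows up to 0.938, 1.035 and 0.955 RPKM at 3 reads. Its neighbour mt-Nd4 held 11490, 13474 and 16120 reads.

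**Figure D2:**
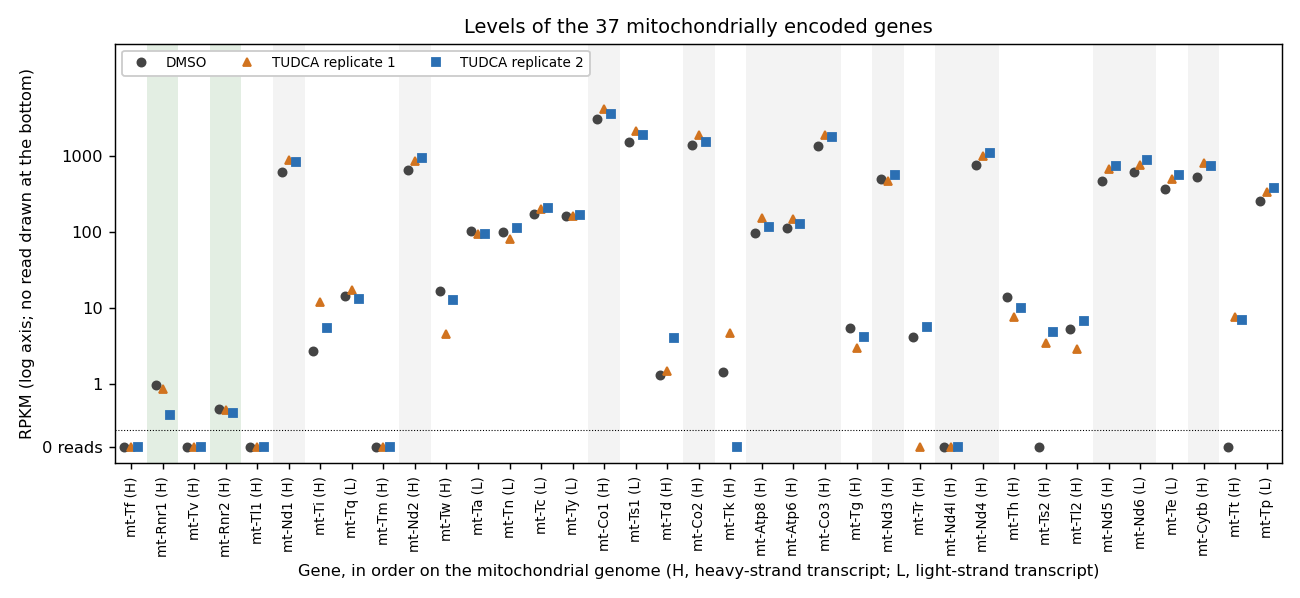
RPKM on a log axis (vertical) of the 37 genes in their order on the mitochondrial genome (horizontal), 1 point per library, with H or L for the transcript that holds the gene; grey bands are protein genes, green bands rRNA genes and white tRNA genes, and genes without a read are drawn at the bottom. mt-Co1 is highest in each library, mt-Nd4l has no read, and both rRNA genes lie below 1 RPKM.

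Shared sequence differed widely between these genes. Of all windows of 50 bases, 100% of those in mt-Co2, 99.9% in mt-Co3, 99.5% in mt-Atp6, 98.8% in mt-Nd4l and 98.0% in mt-Nd3 also occur in an annotated transcript outside the mitochondrial genome. For mt-Nd4 the share was 62.2%, for mt-Co1 51.1%, for mt-Nd2 8.19% and for mt-Nd5 7.61%, while mt-Nd1, mt-Nd6, mt-Cytb and mt-Atp8 had none. Genome sequence outside annotated transcripts was not searched, so a gene without shared windows here can still have a nuclear copy. The shares were nearly the same for mt-Co2 and mt-Co3, among the highest of these genes, and for mt-Atp6 and mt-Nd4l, among the lowest. Many of the pseudogenes concerned were not among the identifiers measured. These include the copies that share most windows with mt-Co1, mt-Co2, mt-Co3, mt-Atp6, mt-Nd3, mt-Nd4 and mt-Nd5, so their levels are unknown. Of the pseudogenes with values, Gm13340, a copy of part of mt-Co1, was the highest, with 1.32, 2.19 and 1.77 RPKM. The copy of mt-Nd4l, Gm10222, had no read in DMSO or TUDCA replicate 1 and 0.318 RPKM in TUDCA replicate 2. Neither the read length nor the handling of reads with several matches is stated in the labels, so the part of these copies in the levels was not tested, and comparisons between these genes are uncertain.

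No protein gene passed the test between TUDCA and DMSO, although 11 of the 12 that could be tested were higher in both TUDCA libraries. Across all 11300 genes tested with limma, 2.65% were called (adjusted p below 0.05) and 40.5% were higher in both TUDCA libraries. Both comparisons use the same DMSO library. Differences are on the log2(RPKM + 1) scale ± SE. The median over the 12 protein genes was 0.45 (0.42 in each TUDCA library), beside 0.04 over all genes tested. At an unadjusted p below 0.05 there were 8 of 12, and 1216 of the 11300.

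The largest difference among the protein genes was that of mt-Nd5, from 474.4 RPKM in DMSO to 706.6 ± 48.7 (SD, n = 2) with TUDCA (0.57 ± 0.20, limma adjusted p = 0.101). mt-Cytb followed, from 534.9 RPKM to 773.0 ± 46.8 (0.53 ± 0.20, limma adjusted p = 0.155). mt-Nd1 had 616.6 and 855.8 ± 35.1 RPKM and mt-Atp8 had 96.9 and 135.0 ± 23.7 RPKM, with limma adjusted p = 0.257 and 0.339. The smallest differences among the genes higher in both libraries were those of mt-Co2 and mt-Atp6, both 0.28. mt-Co1 differed by 0.33 ± 0.20 (limma adjusted p = 0.615). None of these differences passed the threshold. In both TUDCA libraries 8 of the 12 genes were more than 1.2-fold above DMSO, as were 16.4% of all genes tested. That cutoff was set with the ratios of these genes in view, so the gap between the shares is no test.

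mt-Nd3 was the exception. This small complex I gene had 501.7 RPKM in DMSO, 473.0 in TUDCA replicate 1 and 570.9 in TUDCA replicate 2, so that DMSO lay between the TUDCA libraries. Its ratio to DMSO was 0.943 (95% interval of counting error 0.881 to 1.008) and 1.14 (1.07 to 1.21), against medians of 1.34 and 1.34 over the 12 genes. Its part of the mitochondrial protein reads was 1.55%, 1.08% and 1.39%. The log2 difference was 0.05 ± 0.20 (limma adjusted p = 0.983).

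The TUDCA libraries differed from each other by gene as well. mt-Co1, mt-Co2, mt-Atp6 and mt-Atp8 were 1.16, 1.21, 1.16 and 1.28 times higher in replicate 1 than in replicate 2. mt-Nd2, mt-Nd4, mt-Nd5 and mt-Nd6 were 0.916, 0.906, 0.907 and 0.860 times as high in replicate 1. In all, 7 of the 12 genes were higher in replicate 1.

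**Figure D3:**
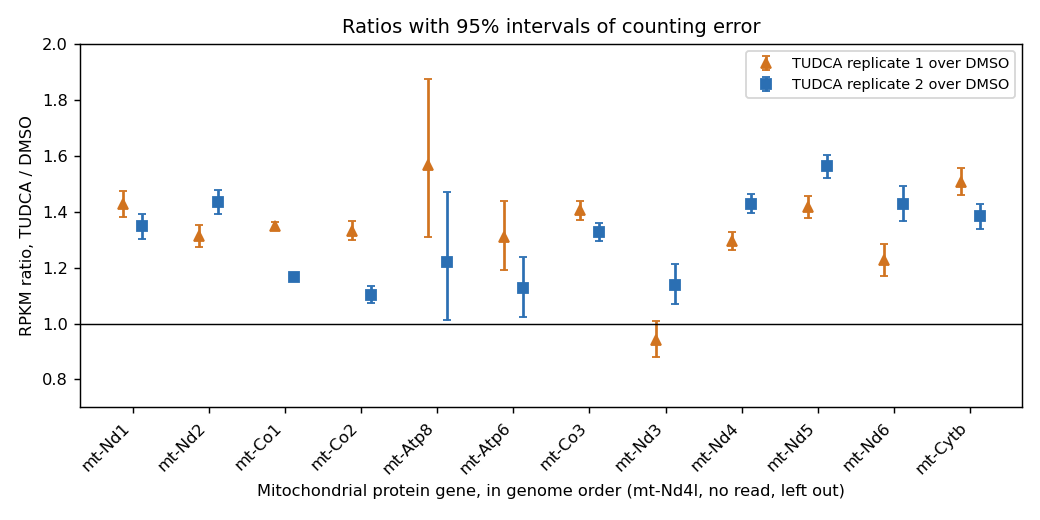
RPKM in each TUDCA library divided by that in DMSO (vertical axis) for 12 mitochondrial protein genes in genome order; bars are exact 95% intervals of counting error, which leave out variation between cultures. All points lie above 1 except mt-Nd3 in TUDCA replicate 1 at 0.943.

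The choice of normalization decided whether protein genes were called. With quantile normalization, mt-Nd1, mt-Nd4, mt-Nd5 and mt-Cytb rose (limma adjusted p = 0.0425, 0.0295, 0.00853 and 0.0179), out of 257 genes called in all (2.27%). Under the other settings tried, no protein gene was called. The median difference was 0.44 with quantile normalization and 0.30 after correction for GC content and transcript length, and it was 0.42 without either TUDCA library.

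Nuclear genes for the same complexes differed less. Of 72 nuclear subunit genes of complexes I, III and IV and of ATP synthase, all could be tested and none was called by limma (1 at an unadjusted p below 0.05), with a median log2 difference of 0.04 (-0.03 and 0.09 in TUDCA replicates 1 and 2). Both TUDCA libraries were above DMSO for 28 of these genes and below it for 8, beside 40.5% and 30.4% of all genes tested. The summed level was 15083 RPKM in DMSO, 14408 in TUDCA replicate 1 and 15848 in TUDCA replicate 2, whereas the mitochondrial protein genes summed to 10265, 13736 and 13042 RPKM. DMSO thus lay between the TUDCA libraries for the nuclear subunits and below both for the mitochondrial ones. The difference between these groups of genes was not tested.

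By complex, the mitochondrial and nuclear medians were 0.45 and 0.07 for complex I, 0.53 (1 gene) and 0.04 for complex III, 0.33 and -0.02 for complex IV, and 0.37 and -0.01 for ATP synthase. The nuclear subunit gene with the largest difference was Ndufa6 of complex I, with 126.6, 195.6 and 160.7 RPKM (0.48 ± 0.20, limma adjusted p = 0.279). Atp5g1, for the ring subunit of ATP synthase, had 41.5, 32.4 and 37.0 RPKM (-0.25 ± 0.23, limma adjusted p = 0.82). Cox4i1, a regulatory subunit of complex IV, had 985.5, 804.6 and 970.6 RPKM. The 4 subunit genes of complex II, which has no mitochondrial gene, had a median of -0.02 and none was called.

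**Figure D4:**
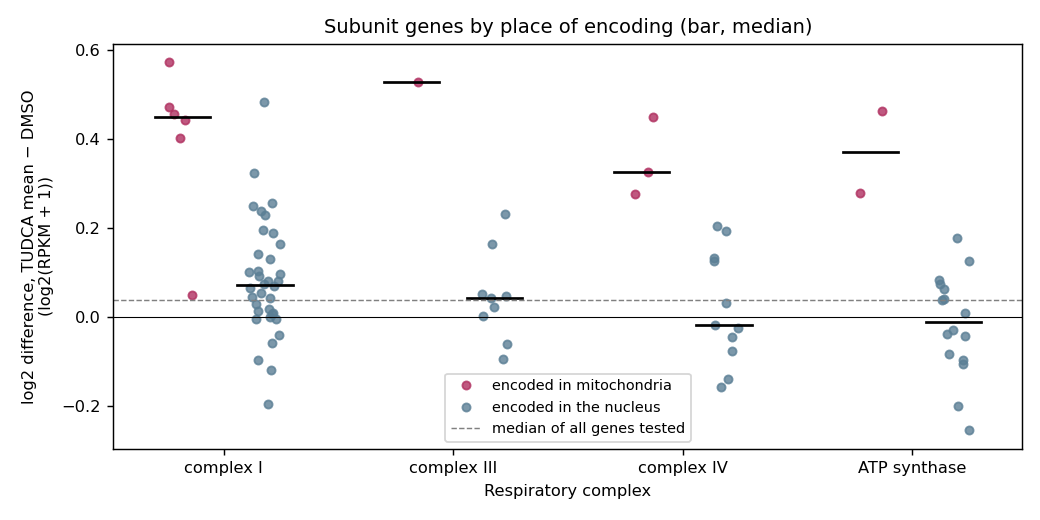
Log2 difference between the TUDCA mean and DMSO (vertical axis) for subunit genes of each complex, with genes encoded in mitochondria and in the nucleus side by side; each point is a gene, bars are medians, and the dashed line is the median of all genes tested, 0.04. In each complex the mitochondrial median, 0.33 to 0.53, is above the nuclear one, -0.02 to 0.07. The groups overlap in complex I, where mt-Nd3 lies among the nuclear subunits. There the nuclear gene Ndufa6, at 0.48, lies above the mitochondrial median of 0.45.

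Genes that act on mitochondrial RNA were not called either. Among 15 tested genes of mitochondrial transcription and genome maintenance, the median was -0.00. Mgme1, a mitochondrial DNA exonuclease, had the largest difference there, with 2.04, 2.38 and 3.40 RPKM (limma adjusted p = 0.813), followed by Tefm, the elongation factor of the mitochondrial polymerase, at 7.49, 8.98 and 10.2 RPKM (limma adjusted p = 0.807). Among 32 genes of mitochondrial RNA processing and stability the median was -0.01. Tbrg4, an RNA-binding protein of the FASTK family, had the largest difference there, with 193.8, 122.9 and 143.5 RPKM (-0.54 ± 0.21, limma adjusted p = 0.174). The 76 tested mitochondrial ribosomal protein genes had a median of -0.04, and 11 translation factors one of 0.12. The largest differences in these lists were those of Mrps2, with 17.0, 23.2 and 25.5 RPKM (limma adjusted p = 0.454), and the initiation factor Mtif2, with 8.71, 14.4 and 10.2 RPKM (limma adjusted p = 0.636). The 17 mitochondrial aminoacyl-tRNA synthetases, which charge the tRNAs, had a median of 0.25, and 11 of them were higher in both TUDCA libraries, beside 40.5% of all genes tested, among them Pars2 with 4.42, 6.10 and 7.94 RPKM. Of 7 tested regulators of mitochondrial biogenesis the median was -0.12, and Esrra, the nuclear receptor ERR-alpha, had 108.1, 76.8 and 94.7 RPKM (limma adjusted p = 0.641). The coactivator Ppargc1a had under 1 RPKM in each library and was below the filter. Mitochondrial chaperones and proteases, 13 genes, had a median of -0.13, and the protease subunit Afg3l2 differed most, with 66.2, 52.0 and 44.4 RPKM (limma adjusted p = 0.434). At an unadjusted p below 0.05 these lists held 3 genes in all, 1 each among the RNA processing, ribosomal protein and chaperone genes.

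The rRNA genes were almost without reads. mt-Rnr1, which encodes the small rRNA, had 10, 8 and 4 reads (0.972, 0.859 and 0.396 RPKM). mt-Rnr2, for the large rRNA, had 8, 7 and 7 reads (0.469, 0.453 and 0.418 RPKM). The ratios to DMSO were 0.883 (95% interval of counting error 0.303 to 2.49) and 0.408 (0.0933 to 1.41) for mt-Rnr1, and 0.966 (0.298 to 3.05) and 0.891 (0.275 to 2.81) for mt-Rnr2. All 4 intervals hold 1, so a difference was not detectable at this depth. Both genes were below the filter of 1 RPKM, and their median log2 difference was -0.16 (-0.05 and -0.27 in TUDCA replicates 1 and 2). Next to mt-Rnr2 and 1 tRNA gene, mt-Nd1 held 6358, 8223 and 8410 reads.

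Reads on the tRNA genes followed the strand. The 14 genes of the heavy-strand transcript had 0 to 12 reads per library, with medians of 1.0 to 3.0. The 8 of the light-strand transcript had 10 to 1456 reads, with medians of 117.5 to 133.5. The groups met at mt-Tq, the light-strand gene for glutamine, with 11, 12 and 10 reads, since the heavy-strand genes mt-Tw, for tryptophan, and mt-Th, for histidine, had 12, 3 and 9 and 10, 5 and 7. Of the 18 tRNA genes that could be tested, 9 were higher and 4 lower in each of the TUDCA libraries than in DMSO, beside 40.5% and 30.4% of all genes tested, so the first share is near that of all genes. A gene of under 80 bases is shorter than many sequenced fragments, so reads on it can also come from longer RNAs that run across it.

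mt-Ts1, for serine, held more reads than any other tRNA gene, with 1129, 1456 and 1403 reads (1519, 2163 and 1923 RPKM). It overlaps the end of mt-Co1 by 3 bases on the opposite strand, and the mt-Co1 mRNA is known to run on through the complement of this tRNA. The ratio of mt-Ts1 to DMSO was 1.42 and 1.27, beside 1.35 and 1.17 for mt-Co1. mt-Te, next to mt-Nd6, had 278, 342 and 409 reads with ratios of 1.36 and 1.499, beside 1.23 and 1.43 for mt-Nd6. mt-Tp, the last gene of the map, had 184, 219 and 271 reads with ratios of 1.31 and 1.5005. Whether counting used the strand is not stated in the labels, so reads of these tRNA genes cannot be told apart from reads of the opposite transcript.

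A cluster of 4 light-strand tRNA genes between mt-Nd2 and mt-Co1 had lower ratios to DMSO than mt-Ts1, mt-Te and mt-Tp. mt-Ta, for alanine, had 104.9, 95.1 and 94.6 RPKM, and mt-Tn, for asparagine, 100.7, 82.3 and 111.9. mt-Tc, for cysteine, had 171.6, 200.3 and 210.6 RPKM, and mt-Ty, for tyrosine, 160.7, 162.1 and 169.4. The ratios to DMSO were 0.817 to 1.23, and every interval of counting error of these ratios held 1. For mt-Tc and mt-Ty the intervals also held 1.32 and 1.28, the ratios of all 8 light-strand tRNA genes together. For mt-Ta they did not, and for mt-Tn only that of replicate 2 did. None of the 8 light-strand tRNA genes was called, with limma adjusted p = 0.183 for mt-Te, the lowest of them. With quantile normalization mt-Te rose (limma adjusted p = 0.0239).

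**Figure D5:**
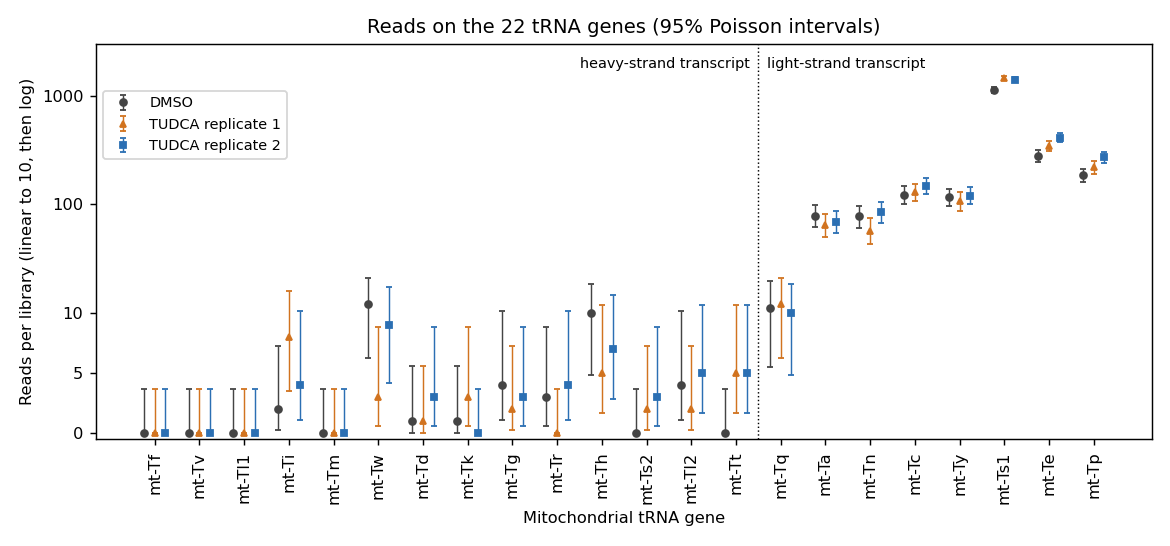
Reads per library (vertical axis, linear to 10 and logarithmic above) on the 22 tRNA genes, grouped by the transcript that holds them and in genome order within each group; bars are exact 95% Poisson intervals, which cover counting error only. Heavy-strand genes stay at 12 reads or fewer, and light-strand genes reach 1456.

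The members that passed the test were 4 heavy-strand tRNA genes with very few reads. They were 4 of 30 tested members, 3 higher and 1 lower, beside 2.65% of all genes (1.77% higher and 0.876% lower), and rested on 12 reads or fewer in any library. mt-Tt, for threonine, had no read in DMSO and 5 and 5 reads with TUDCA (7.65 and 7.06 RPKM). Set against the 3 reads that a count of 0 allows, its level was 1.84-fold and 1.70-fold in the TUDCA libraries. These folds take the 5 reads as exact, so they are not lower bounds. Intervals of counting error for mt-Tt were 0 to 3.69 reads in DMSO and 1.62 to 11.7 reads in each TUDCA library, and they overlapped. limma gave an adjusted p of 2.54e-20, and voom on the reads gave 0.0519. The filter kept it only through the TUDCA libraries.

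mt-Ts2, for serine, had no read in DMSO and 2 and 3 reads with TUDCA, at or under the floor of 3 reads, so no fold is given, and it too passed the filter only through TUDCA. mt-Ti, for isoleucine, had 2, 8 and 4 reads, which gave ratios of 4.42 (95% interval of counting error 0.881 to 42.7) and 2.04 (0.292 to 22.5). mt-Tw had 12, 3 and 9 reads and was lower with TUDCA, with ratios of 0.276 (0.04999 to 1.02) and 0.764 (0.284 to 1.98). The limma adjusted p was 3.41e-11 for mt-Ts2, 0.000661 for mt-Ti and 0.0132 for mt-Tw, while voom gave adjusted p = 0.291, 0.617 and 0.624. voom called none of the 30 members and 2.36% of all genes. Without the filter limma called neither these nor any other gene.

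The remaining heavy-strand tRNA genes gave no call. mt-Tf, mt-Tv, mt-Tl1 and mt-Tm, for phenylalanine, valine, leucine and methionine, had no read in any library, which at 3 reads allows up to 3.71 to 4.52 RPKM. The other six, mt-Td, mt-Tk, mt-Tg, mt-Tr, mt-Th and mt-Tl2, had 0 to 10 reads per library. mt-Tr, for arginine, had 3, 0 and 4 reads (limma adjusted p = 0.0533), and 4 settings called it lower although TUDCA replicate 2 lay above DMSO. Of the nuclear RNAs without a poly(A) tail, 2 of 13 could be tested. Rpph1, the RNA of ribonuclease P, fell from 11.1 RPKM to 1.61 and 5.34 (limma adjusted p = 1.85e-05), and Rn7sk had 32.0, 20.1 and 47.1 RPKM, with DMSO between the TUDCA libraries. Their part in the levels of the rRNA and tRNA genes was not tested.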

How the data were processed

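The authors deposited RPKM values, 1 table per library with 37620 Ensembl identifiers, made with HTSeq, Bowtie2, TopHat2 2.0.7 and CASAVA, per the submitters' processing notes, which give no roles. No label or header names a genome build. Symbols from GENCODE M21 matched 32897 identifiers and all 37 mitochondrial genes, whose positions are that annotation's. Library totals are the smallest that turn the RPKM of every mitochondrial gene into whole reads at its annotated length.

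Values were tested as log2(RPKM + 1), so differences of low genes are understated, in the 11300 genes whose mean reached 1 RPKM, with limma 3.58.1 in R 4.3.3 (variance trend, Benjamini-Hochberg adjustment, threshold 0.05). The 1 residual degree of freedom came from the TUDCA pair, DMSO was assumed to vary like it, and prior degrees of freedom were infinite, so genes shared a spread (SD 0.1595 to 0.2653). The fit was tested on simulated data. Changes were placed only in genes with more reads than the called mitochondrial genes held, and all libraries were set to vary alike. That test thus does not bear on calls from few reads or on variation between DMSO cultures. voom used the smallest whole reads found for every gene. Of 254 entries in hand-made gene lists, 246 matched an identifier; mitochondrial ribosomal proteins were taken by symbol. All members are named. The rule for a list was its called members and up to 4 with the largest differences, of which the text gives some. Alb and Ppargc1a were named outside it. Members and lists were chosen with earlier results of these data known.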

Additional observations from a re-analysis of the deposited data

How the results depend on the processing

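The calls of mitochondrial genes rested on the filter and on few reads. With 299 genes called by limma in the fit reported, no filter left 0 (with 1696 at p below 0.05 before adjustment), a filter of 0.3 RPKM left 26, and 94 were called after correction for GC content and transcript length. There were 232 at a filter of 5 RPKM, 267 with voom and 265 among genes of at least 300 nt with 20 reads or more over the libraries. Of the 4 mitochondrial genes called, 0 were left without a filter and with voom. Under those limits on length and reads there were also 0, but all 4 are shorter than 300 nt and were not tested there. There were 2 at filters of 5 and 0.3 RPKM and after the GC and length correction, and 8 with quantile normalization. At the filter of 5 RPKM, mt-Tt and mt-Ts2, with means of 4.90 and 2.76 RPKM over the libraries, were not tested. The median difference of the protein genes was 0.446, and it was 0.439 with quantile normalization, 0.406 with median centring, 0.451 with library totals that leave out mitochondrial reads, 0.454 as TPM, 0.301 after the GC and length correction and 0.418 to 0.423 without 1 TUDCA library. The share of reads was 0.359 percentage points higher with TUDCA, and this was 0.554 as a share of the summed RPKM, 0.236 without mt-Co1 and 0.315 to 0.403 without 1 TUDCA library. The first 3 gaps start from unlike DMSO shares. As ratios to DMSO, the shares without mt-Co1 were 1.356 and 1.355 in TUDCA replicates 1 and 2, beside 1.353 and 1.276 with it. The filter at 0.3 RPKM, the limit at 300 nt and 20 reads, the GC and length correction and the share without mt-Co1 were chosen after seeing the data. So was the 1.2-fold cutoff for the protein genes. For the protein genes, none of which was called, 151 of 155 tested values under the alternatives were not called either, and the other 4, all with quantile normalization, were. The rRNA median was recomputed only where the filter kept both genes. Calls with 1 TUDCA library could not be made, as no residual degree of freedom is left. No paired analysis was possible because the DMSO library carries no replicate number.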
